A study of Mus musculus with 9 samples.

Results

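The elastic fibre genes described here are Eln, Fbn1, Fbn2, Mfap5, Emilin1, Fbln1, Fbln2, Fbln5, Lox and Loxl1. They were picked by name as a family, and all 10 were found among the 54532 mouse genes of the deposited table. An elastic fibre is an extracellular fibre that lets tissues such as arteries, lung and heart valves stretch and recoil. It is built by laying the protein elastin onto a scaffold of microfibrils, with fibulins guiding the deposition and enzymes of the lysyl oxidase family crosslinking elastin into a durable polymer. Mesenchymal cells, mainly smooth muscle cells and fibroblasts, make its parts, and TGF-β, a growth factor stored in the matrix by proteins that bind microfibrils, is known as a regulator of many matrix genes.

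RNA sequencing was done on cardiosphere-derived cells, which are mesenchymal cells grown out of heart tissue through floating clusters called cardiospheres. All libraries came from the heart ventricle of C57BL/6 mice, and the study's methods name the epicardium of adult mice as the source. Each of 3 groups had 3 libraries. The pECDC group held primary cells without treatment, titled P0 in the labels, whereas the methods name passage 3 for the primary cells used in experiments. The iECDC group held untreated cells of the same kind at passage 30, immortalized with hTERT, the catalytic subunit of human telomerase, which a lentivirus delivered under a CMV promoter. By the methods, the infected cells were then selected with puromycin. The SBT group held, by the labels, such immortalized cells at passage 30 after 3 days of SB431542, a small molecule that blocks the kinase of the type I receptor for TGF-β, whereas the methods describe an epithelial clone derived from pECDCs for this treatment. Labels and methods also differ on the number of biological replicates and the library kit, and nothing says that the libraries came from separate cultures or animals, so p-values may measure technical spread only.

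Total counts per library ranged from 16568306 to 23951392. Markers of cardiosphere-derived cells (Eng, Thy1 and Ly6a) summed to between 193 and 241 FPKM in every library, where FPKM is a count scaled by gene length and library size. Within that sum Ly6a was at 3.92 to 7.11 FPKM in pECDC and iECDC libraries and at 35.4, 16.2 and 37.0 FPKM in SBT libraries. All 4 epithelial markers (Cdh1, Epcam, Krt8 and Krt18) had at most 4 counts in any library, SBT libraries included, and all 4 endothelial markers (Pecam1, Cdh5, Kdr and Tie1) at most 9. The 5 epicardial markers (Tbx18, Wt1, Tcf21, Upk3b and Msln) summed to 20.2 to 21.2 FPKM in pECDC, 19.4 to 25.8 in iECDC and 26.1 to 45.1 in SBT libraries, nearly all of it Tbx18. Tcf21 was higher in SBT than in iECDCs (log2 fold change 1.47, edgeR adjusted p = 0.0057). Wt1 (43, 14 and 39 counts in SBT libraries, at most 14 elsewhere) and Upk3b (1.16 to 1.36 FPKM, at most 0.166 elsewhere) passed the filter on low counts only through SBT, and the part of these markers in the levels of the elastic fibre genes was not tested. Libraries of a group differed from each other by a chi-square per degree of freedom of 2.7 to 4.61, except iECDC replicate 3 (24.9 and 30.8 against the other iECDC libraries) and SBT replicate 2 (70.3 and 71.5 against the other SBT libraries). Counts of called genes are given with and without these libraries. In bulk RNA, fewer cells of a type and less RNA per cell cannot be told apart.

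In pECDCs, Fbln2 had the highest level of the 10 genes at 730.3 FPKM on average, and Eln, the gene of the elastic core itself, the lowest at 0.0343. The order between them was Lox, Loxl1, Emilin1, Fbn1, Fbln1, Fbln5, Mfap5 and Fbn2, and no neighbouring genes in it overlapped over the pECDC libraries. The iECDCs kept this order, also without overlap between neighbours. In the SBT group Loxl1 and Lox changed places, with overlapping libraries, the range of Lox also took in the levels of Fbln2 and Emilin1, and Fbln1 came above Fbn1 and Mfap5 above Fbln5, without overlap. Only 31 genes of the whole table had a higher mean FPKM than Fbln2 in pECDCs and 37 in iECDCs, against 205 in the SBT group.

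**Figure D1:**
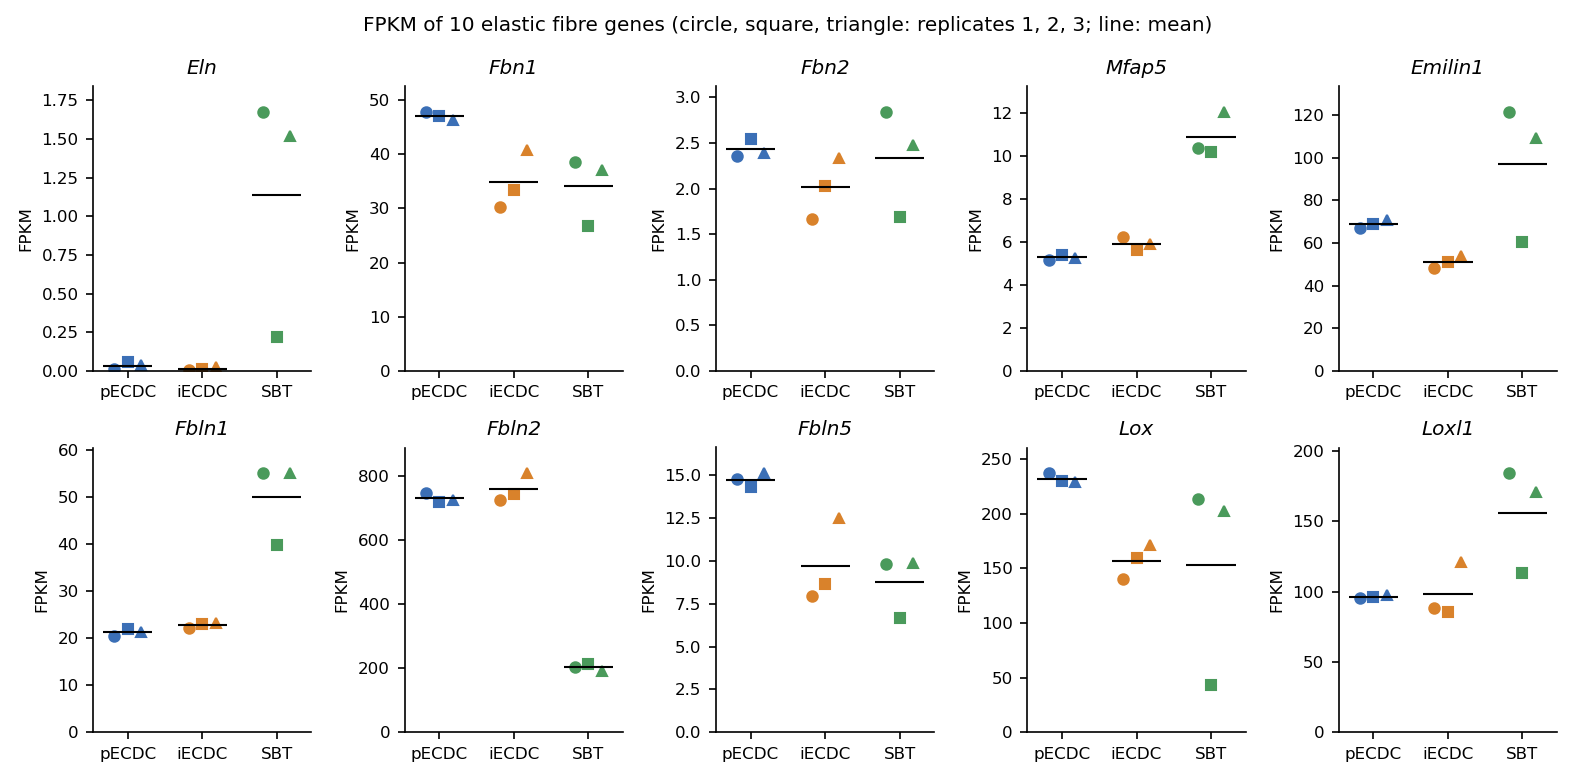
FPKM of each elastic fibre gene (vertical axis, linear from 0, with its own scale per panel) in the 3 libraries of pECDC, iECDC and SBT. Symbols mark replicates 1, 2 and 3, and the line is the group mean. Fbln2 lies between 193 and 212 in SBT libraries and above 719 elsewhere, and SBT replicate 2 lies below the other SBT libraries for every gene but Fbln2.

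The genes lie on 7 chromosomes, and the coordinates of the table are on the GRCm38 build. Eln spans 5:134702593-134747323 and Emilin1 5:30913402-30921277. Fbn1 spans 2:125300594-125507993, Mfap5 6:122505845-122529290 and Fbln2 6:91212455-91272540. The remaining genes are Fbln1 at 15:85205949-85286535, Fbln5 at 12:101746565-101819055, Loxl1 at 9:58287738-58313186, Lox at 18:52516069-52529867 and Fbn2 at 18:58008623-58209926. Gm30003 and AC161119.1 overlap Eln and Lox on the opposite strand and Gm9913 overlaps Fbn1 on the opposite strand. Whether counting used the strand of reads is not given in the sources used here, so reads of these overlaps could be shared.

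Each pair of groups was compared with edgeR's quasi-likelihood test over all genes that passed a filter on low counts, and a gene was called at a Benjamini-Hochberg adjusted p under 0.05. The iECDCs and pECDCs differ by immortalization, puromycin selection and passage. Between them, 4 of the 9 tested elastic fibre genes were lower in iECDCs (Fbn1, Emilin1, Fbln5 and Lox) and 0 were higher. Over all genes tested, 9.21% were called lower and 7.21% higher. No elastic fibre gene was higher at an unadjusted p under 0.05 either, and DESeq2 also called 0 higher. The share of all genes was not taken for these counts. With 7.21% of all genes called higher by edgeR, 0 of 9 genes lies near the share of all genes. Eln did not pass the filter. The median log2 fold change was -0.29 over the 9 genes and -0.0018 over all genes tested.

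Eln passed the filter in both comparisons of the SBT group, but only through its SBT counts, so it had to differ once tested. It is therefore described by its levels alone and left out of the counts and medians that follow. Of the other 9 genes, 4 were higher in SBT than in iECDCs (Mfap5, Emilin1, Fbln1 and Loxl1), 1 was lower (Fbln2) and 4 were not called. Of all genes tested, 16.0% were called higher and 14.0% lower. The median log2 fold change was 0.23 over the 9 genes and 0.0015 over all genes tested, and without SBT replicate 2 that of the 9 genes was 0.42.

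The SBT group was also compared with pECDCs, and both comparisons use the same SBT libraries. Here 3 of the 9 genes were higher in SBT (Mfap5, Fbln1 and Loxl1), 3 were lower (Fbn1, Fbln2 and Fbln5) and 3 were not called. Over all genes tested, 17.9% were called higher and 17.0% lower. The median log2 fold change was -0.05 over the 9 genes and 0.0068 over all genes tested, and without SBT replicate 2 that of the 9 genes was 0.14.

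**Figure D2:**
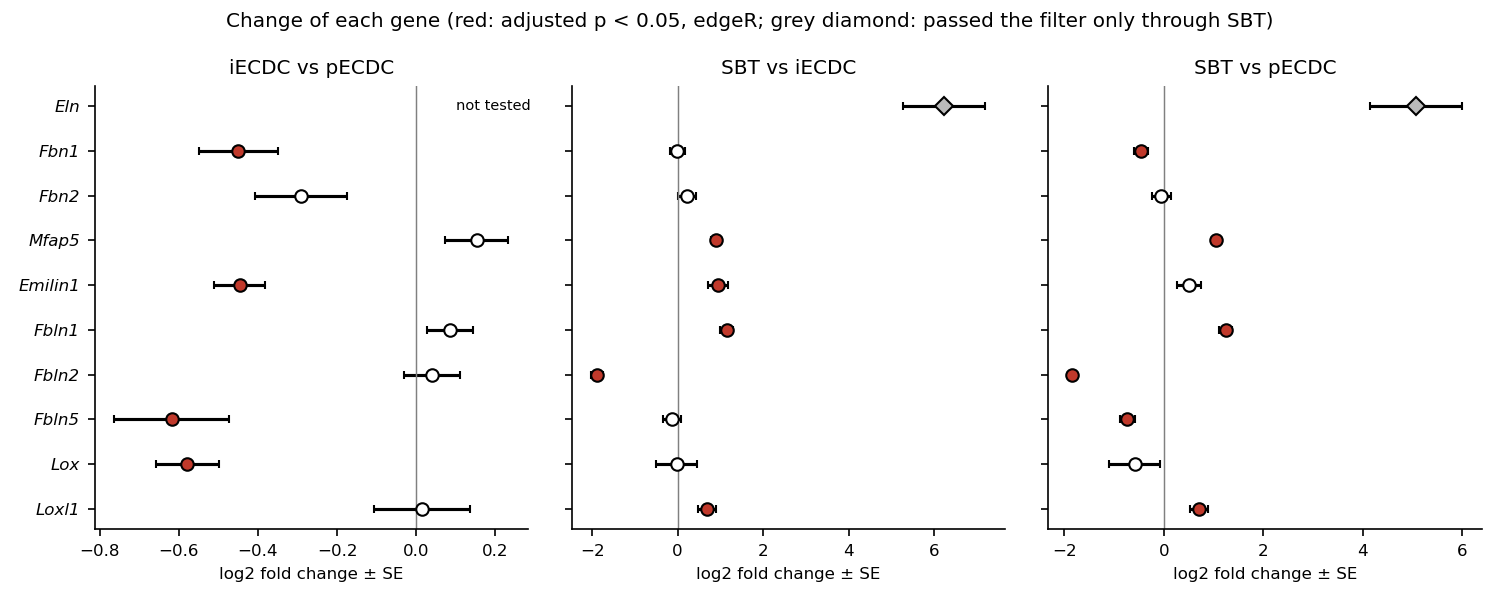
Log2 fold change of each elastic fibre gene in the 3 comparisons, first group over second, with its standard error (edgeR). Red points have an adjusted p under 0.05, and the grey diamond is Eln, which passed the filter only through SBT. Fbln2 has the lowest value in both SBT comparisons (-1.89 and -1.84).

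Eln encodes tropoelastin, the soluble unit that is crosslinked into the elastic core. Its counts were 2, 9 and 7 in pECDC replicates 1 to 3, and 1, 2 and 3 in the iECDC libraries. The SBT libraries held 238, 37 and 222 counts, so every SBT library was above every other library and SBT replicate 2 was the lowest of its group. In FPKM these were 0.0101, 0.0558 and 0.0370, then 0.0061, 0.0150 and 0.0241, then 1.68, 0.217 and 1.52. At the depth of these libraries 3 counts of Eln correspond to 0.0151 to 0.0241 FPKM, and all iECDC libraries were at or under that floor.

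Scaled for library size, the pooled SBT counts were 76.6 times those of iECDCs, with an exact interval of 34.9 to 210 at the 95% level that covers counting error only. For SBT replicate 2 alone the ratio was 15.3 (6.39 to 44.3), and for replicates 1 and 3 it was 119 (53.8 to 327) and 108 (48.6 to 296). Against pECDCs the pooled ratio was 33.2 (20.8 to 56.5), with 6.62 (3.67 to 12.3) for SBT replicate 2 and 51.6 and 46.7 for replicates 1 and 3. Even in SBT libraries Eln was at 1.14 FPKM on average, the lowest of the 10 genes within each SBT library.

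Of the 4 microfibril genes, Mfap5 and Emilin1 were higher in SBT than in iECDCs, and Fbn1 and Fbn2 were not called there. Fbn1 encodes fibrillin-1, the main microfibril protein of adult tissue. Its FPKM was 47.8, 47.1 and 46.4 in pECDCs, 30.3, 33.4 and 40.8 in iECDCs and 38.6, 26.8 and 37.2 in SBT libraries. Every iECDC and SBT library was below every pECDC library, while iECDC and SBT libraries overlapped. Against pECDCs, Fbn1 was lower in iECDCs, with a log2 fold change of -0.45 ± 0.10 (SE; edgeR adjusted p = 0.0169), and in SBT, with -0.45 ± 0.14 (edgeR adjusted p = 0.0465). Between SBT and iECDCs it differed by -0.01 ± 0.18 and was not called.

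Fbn2, which encodes fibrillin-2, a microfibril protein best known from development, was far less abundant. Its FPKM was 2.36, 2.54 and 2.39 in pECDCs, 1.67, 2.03 and 2.33 in iECDCs and 2.84, 1.68 and 2.48 in SBT libraries. The iECDC libraries all lay below the pECDC libraries, the SBT libraries overlapped both groups, and Fbn2 was called in none of the 3 comparisons. The FPKM of Fbn1 was 18.5 to 20.3 times that of Fbn2 in pECDCs, 16.4 to 18.2 times in iECDCs and 13.6 to 15.9 times in SBT libraries. These ranges did not overlap, and the exact permutation test, two-sided, gave p = 0.1 for each pair of groups, which is the smallest value that 3 libraries against 3 allow.

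Mfap5 encodes a small microfibril-associated glycoprotein that binds fibrillin. Its FPKM was 5.17, 5.37 and 5.26 in pECDCs, 6.21, 5.61 and 5.89 in iECDCs and 10.3, 10.2 and 12.0 in SBT libraries. SBT libraries did not overlap either other group, and SBT replicate 2 stood beside replicate 1 here. Mfap5 rose by 0.89 ± 0.12 on the log2 scale against iECDCs (edgeR adjusted p = 0.0020) and by 1.05 ± 0.09 against pECDCs (edgeR adjusted p = 0.00056). It was called in every alternative to both. Between iECDCs and pECDCs it was not called (0.15 ± 0.08), although the libraries did not overlap.

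Emilin1 encodes a glycoprotein found where elastin meets the microfibrils. Its FPKM was 66.9, 69.1 and 70.8 in pECDCs, 48.1, 51.3 and 53.9 in iECDCs and 121, 60.4 and 109 in SBT libraries. SBT replicates 1 and 3 were the highest of all 9 libraries, whereas SBT replicate 2 lay between the iECDC and pECDC ranges. Emilin1 was lower in iECDCs than in pECDCs, with a log2 fold change of -0.45 ± 0.06 (edgeR adjusted p = 0.0021). It rose by 0.94 ± 0.24 in SBT against iECDCs (edgeR adjusted p = 0.0216), and the difference of SBT from pECDCs, 0.50 ± 0.24, was not called (edgeR adjusted p = 0.143). Without SBT replicate 2 these became 1.18 and 0.75, both called.

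Of the 3 fibulin genes, Fbln2 was lower and Fbln1 higher in SBT than in both other groups, and Fbln5 was lower in both iECDCs and SBT than in pECDCs. Fbln2 encodes fibulin-2, a glycoprotein of the elastic fibre and basement membrane that is abundant in the developing heart. Its FPKM was 746, 719 and 726 in pECDCs, 726, 742 and 807 in iECDCs and 204, 212 and 193 in SBT libraries. All SBT libraries were below all others with a narrow spread, SBT replicate 2 included, and pECDC and iECDC libraries overlapped. Fbln2 fell by 1.89 on the log2 scale against iECDCs (SE 0.13, edgeR adjusted p = 0.00031). It also fell by 1.84 on this scale against pECDCs (SE 0.08, edgeR adjusted p = 6.3e-05), and it was called in every alternative to both. Between iECDCs and pECDCs its log2 fold change was 0.04 ± 0.07 and not called.

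Fbln1 encodes fibulin-1, which is built into elastic fibres together with elastin and is also known from heart valve development. Its FPKM was 20.5, 21.9 and 21.4 in pECDCs, 22.2, 23.0 and 23.2 in iECDCs and 55.0, 39.8 and 55.1 in SBT libraries. SBT libraries were all above the others. Fbln1 rose by 1.14 ± 0.15 on the log2 scale against iECDCs (edgeR adjusted p = 0.0018) and by 1.24 ± 0.14 against pECDCs (edgeR adjusted p = 0.0012), again in every alternative. It was not called between iECDCs and pECDCs (0.09 ± 0.06).

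The FPKM of Fbln1 was 0.0275 to 0.0310 times that of Fbln2 in every pECDC and iECDC library. In SBT libraries it was 0.271, 0.188 and 0.286 times that of Fbln2, so the level of Fbln1 relative to Fbln2 was higher in each. The exact permutation test, two-sided, gave p = 0.1 for SBT against either group, the smallest value possible, and p = 0.5 between iECDCs and pECDCs.

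Fbln5 encodes fibulin-5, a protein that binds elastin and is required for normal elastic fibres. Its FPKM was 14.7, 14.3 and 15.1 in pECDCs, 7.94, 8.63 and 12.5 in iECDCs and 9.83, 6.64 and 9.86 in SBT libraries. Every iECDC and SBT library was below the pECDC range, and iECDC replicate 3 was the nearest to it. Fbln5 was lower than in pECDCs in iECDCs, with a log2 fold change of -0.62 ± 0.14 (edgeR adjusted p = 0.0204), and in SBT, with -0.73 ± 0.15 (edgeR adjusted p = 0.0111). SBT and iECDCs differed by -0.13 ± 0.21, which was not called.

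The reference promoter windows (RefSeq, GRCm38, 250 bases before to 50 after each annotated start) held 5 of the 10 genes, namely Fbn1, Emilin1, Fbln1, Fbln2 and Fbln5. The stretch before the start is shown for Fbln1 and Fbln5, fibulins that were higher and lower in SBT than in pECDCs, because neither stretch contains an annotated exon. Fbln5 was also lower in untreated iECDCs than in pECDCs (log2 fold change -0.62) and was not called between SBT and iECDCs (-0.13). Capitals mark the letters CAGAC or, on the opposite strand, GTCTG, known as the Smad box, to which the Smad proteins downstream of TGF-β receptors can bind.
Fbln1, chr15:85205699-85205948, + strand: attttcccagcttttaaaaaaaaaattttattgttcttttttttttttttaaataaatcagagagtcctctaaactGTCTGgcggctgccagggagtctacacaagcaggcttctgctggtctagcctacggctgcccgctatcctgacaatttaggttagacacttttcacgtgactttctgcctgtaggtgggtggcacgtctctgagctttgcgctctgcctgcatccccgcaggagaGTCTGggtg
Fbln5, chr12:101819120-101819369, - strand: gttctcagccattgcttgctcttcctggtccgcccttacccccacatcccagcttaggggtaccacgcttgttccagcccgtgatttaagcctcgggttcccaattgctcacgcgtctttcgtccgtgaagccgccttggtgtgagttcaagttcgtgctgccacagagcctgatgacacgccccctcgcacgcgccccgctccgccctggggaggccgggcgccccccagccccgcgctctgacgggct
The stretch of Fbln1 held 2 matches and that of Fbln5 held 0. Over the whole windows, Emilin1 had 2 matches and both windows of Fbln1 had 2. The windows of Fbln5 had 1 (the window shown in part) and 2, and those of Fbn1 and Fbln2 had 0. Of all 32851 windows, 49.6% held at least 1 match, so a match in a window of this length is common.

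The crosslinking enzymes were abundant in all groups. Lox encodes lysyl oxidase, a copper enzyme that oxidizes lysines of elastin and collagen. Its FPKM was 237, 230 and 229 in pECDCs, 140, 159 and 171 in iECDCs and 213, 43.8 and 202 in SBT libraries. Every iECDC library was below every pECDC library. SBT replicates 1 and 3 lay between those groups, and SBT replicate 2 was below all other libraries, with 4431 counts against 17988 and 17561.

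Lox was lower in iECDCs than in pECDCs, with a log2 fold change of -0.58 ± 0.08 (edgeR adjusted p = 0.0017). Against iECDCs the SBT group differed by -0.02 ± 0.48 and was not called (edgeR adjusted p = 0.978), and without SBT replicate 2 Lox was higher by 0.41 (edgeR adjusted p = 0.0111). Against pECDCs the difference was -0.59 ± 0.51, not called, and without SBT replicate 2 it was -0.15 (edgeR adjusted p = 0.0048). The direction of Lox in SBT libraries relative to iECDCs thus differed between SBT replicate 2 and the other SBT libraries.

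Loxl1 encodes lysyl oxidase-like 1, an enzyme known to act on elastin during fibre renewal. Its FPKM was 95.4, 96.6 and 97.4 in pECDCs, 88.2, 85.6 and 121 in iECDCs and 184, 113 and 171 in SBT libraries. SBT libraries were all above pECDC libraries, and SBT replicate 2 lay below iECDC replicate 3. Loxl1 rose by 0.68 ± 0.21 on the log2 scale against iECDCs (edgeR adjusted p = 0.0448) and by 0.70 ± 0.18 against pECDCs (edgeR adjusted p = 0.0210). Between iECDCs and pECDCs it differed by 0.01 ± 0.12 and was not called.

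The FPKM of Lox was 2.35 to 2.48 times that of Loxl1 in pECDCs and 1.41 to 1.86 times in iECDCs. In SBT libraries it was 1.16, 0.387 and 1.18 times that of Loxl1. The 3 groups did not overlap in this ratio, and the exact permutation test, two-sided, gave its smallest possible value, p = 0.1, for each pair of groups. Further ratios were tested in the same way. Fbln2 over Fbn1 overlapped between no groups, and Emilin1 over Fbn1 only between iECDCs and pECDCs. Lox over Fbn1 overlapped between SBT and each other group, but not between iECDCs and pECDCs.

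Summed over the 10 genes, pECDC libraries held 1207 to 1236 FPKM, iECDC libraries 1070 to 1238 and SBT libraries 841, 515 and 793. Fbln2 made up 59.6% to 60.4% of the sum in pECDCs, 65.2% to 67.8% in iECDCs and 24.2%, 41.2% and 24.3% in SBT libraries. Without Fbln2 the sum was 487 to 490 FPKM in pECDCs, 345 to 431 in iECDCs and 637, 303 and 600 in SBT libraries. This sum was thus above both groups in SBT replicates 1 and 3 and below both in SBT replicate 2. Lox, a large part of the sum, was at 43.8 FPKM in SBT replicate 2 and at 140 to 237 in pECDC and iECDC libraries. In that replicate Fbn1 and Fbln5 were also below both groups, whereas Loxl1, Fbln1 and Mfap5 were above every pECDC library. Loxl1 held 21.5% to 22.0% of the sum in all SBT libraries and at most 9.81% elsewhere, and Lox held 25.4%, 8.51% and 25.5% in SBT libraries.

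**Figure D3:**
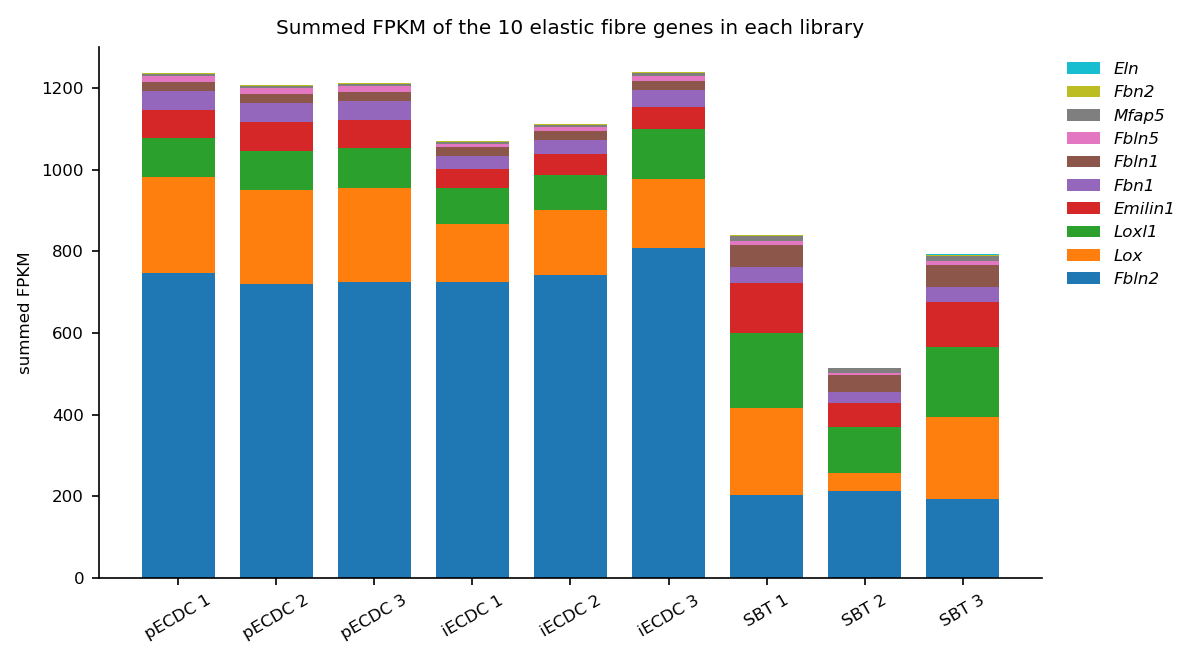
Summed FPKM of the 10 elastic fibre genes in each of the 9 libraries (vertical axis, linear from 0), with each colour a gene. Fbln2 is the largest block in all libraries but those of SBT replicates 1 and 3, where Lox is slightly larger, and the sum is lowest in SBT replicate 2 (515 FPKM).

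Leaving out the libraries that stand apart changed how many of the genes were called. Without iECDC replicate 3, 6 genes were lower in iECDCs than in pECDCs, adding Fbn2 (-0.41) and Loxl1 (-0.16), and 0 were higher, while 16.2% of all genes were called lower and 15.5% higher. Without SBT replicate 2, 6 of the 9 genes other than Eln were higher in SBT than in iECDCs, adding Fbn2 (0.42) and Lox, and 1 was lower, with 25.3% of all genes higher and 24.8% lower. In that setting 4 of the 9 were higher and 4 lower in SBT than in pECDCs, with Emilin1 now higher and Lox now lower, and 31.7% of all genes were higher and 32.3% lower.

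With both of these libraries left out, an alternative added after seeing the data, 8 of the 9 genes were higher in SBT than in iECDCs and Fbln2 was lower, against 32.6% of all genes higher and 31.9% lower. Fbn1 (0.26) and Fbln5 (0.26) then joined the genes called higher. The calls of Mfap5, Fbln1 and Fbln2 against iECDCs held whichever of the 6 libraries was left out. Emilin1 lost its call without iECDC replicate 1, 2 or 3 and without SBT replicate 1 or 3, and Loxl1 without iECDC replicate 1 or 2 and without SBT replicate 1 or 3, which left 2 genes higher (3 without iECDC replicate 3). Over all genes, 1707 were called between SBT and iECDCs without iECDC replicate 1, against 4061 with all libraries of both groups. The loss of calls there was thus not particular to the elastic fibre genes. Shares of all genes called higher are not given here for these settings, so these counts are no result about the elastic fibre genes. Loxl1 was also not called by limma on FPKM. Against pECDCs, Loxl1 lost its call without any of the pECDC libraries or SBT replicate 1 or 3, and Fbn1 without any of the pECDC libraries or SBT replicate 3. In the comparison of iECDCs with pECDCs, Fbn1 and Fbln5 lost their calls without any of the pECDC libraries or without iECDC replicate 2, and Emilin1 and Lox kept theirs. Over all genes, 1056, 1036 and 1065 were called there without pECDC replicate 1, 2 and 3, against 2258 with all libraries of both groups. With all 9 libraries in a shared fit, 0 of these 4 elastic fibre genes were called, and 671 of all genes.

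As a check of the inhibitor, 4 genes known to respond to TGF-β were read in the same libraries. Ctgf, which encodes a matrix-associated growth factor, was at 431 to 459 FPKM in iECDCs and at 27.4, 70.9 and 30.7 FPKM in SBT libraries. Ctgf, Smad7 and Skil all fell against iECDCs, with log2 fold changes of -3.36, -1.78 and -2.14, and Tgfbi rose by 3.53 (edgeR adjusted p from 0.00047 to 0.0040). Tgfbi thus went the opposite way to Ctgf, Smad7 and Skil. It was lower in iECDCs than in pECDCs (log2 fold change -2.74, edgeR adjusted p = 0.00014). Between SBT and pECDCs Tgfbi was not called (0.79, edgeR adjusted p = 0.282). In SBT replicate 2 each of the 4 lay nearer to iECDCs than in the other SBT libraries, as did Eln, Emilin1, Fbln1 and Loxl1, whereas Fbln2 and Mfap5 did not stand apart and Lox, Fbn1, Fbn2 and Fbln5 lay below the iECDC mean only in replicate 2. Whether a weaker response to the inhibitor had a part in the values of SBT replicate 2 was not tested.

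**Figure D4:**
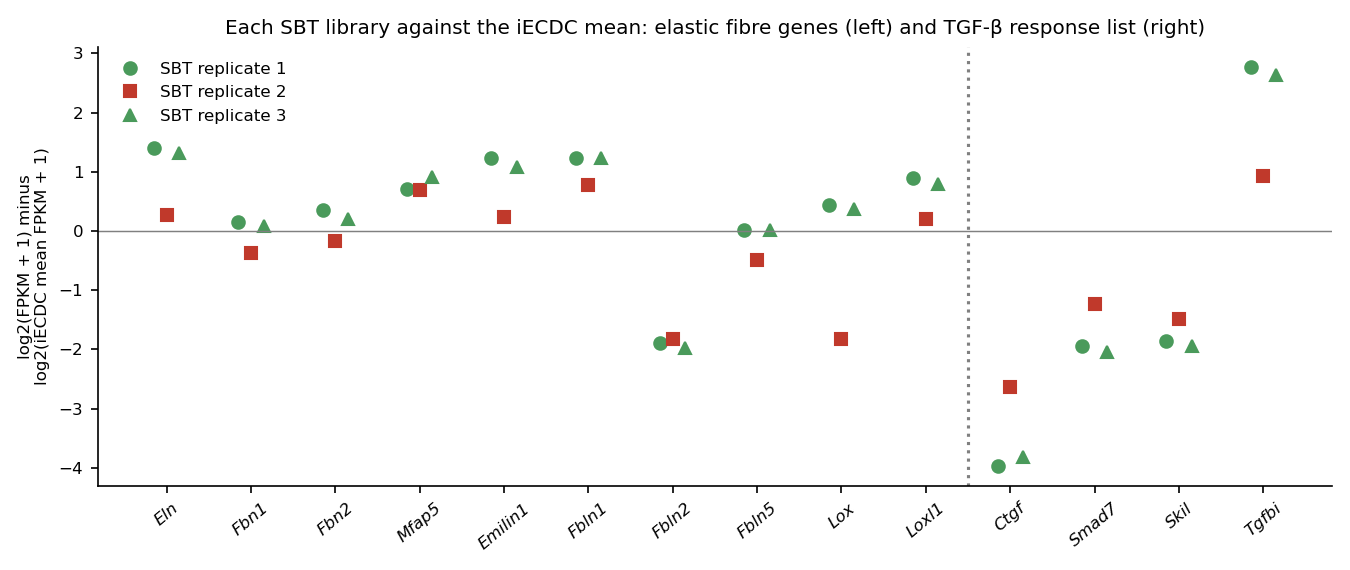
Each SBT library's log2(FPKM + 1) minus that of the iECDC mean (vertical axis) for the 10 elastic fibre genes, left of the dotted line, and 4 TGF-β response genes, right of it. SBT replicate 2 (squares) is at -1.82 for Lox, where the others are at 0.44 and 0.36, and at -1.83 for Fbln2, beside -1.89 and -1.97.

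The smooth muscle markers Acta2, Tagln, Cnn1 and Myh11 were read as well, since smooth muscle is a main source of elastin. Their summed level was 721 to 744 FPKM in pECDC libraries, 817 to 1920 in iECDC libraries and 139 to 331 in SBT libraries, and nearly all of it was Acta2, at 1898 FPKM in iECDC replicate 3 against 812 and 848 in the other iECDC libraries. Of the 4 genes, Myh11 was higher in iECDCs than in pECDCs, Acta2 and Myh11 were lower in SBT than in iECDCs and Acta2 was lower in SBT than in pECDCs, while Tagln and Cnn1 were not called. The mesenchymal markers Pdgfra, Col1a1, Col1a2 and Vim summed to 1790 to 1840 FPKM in pECDC, 1760 to 2160 in iECDC and 1320 to 1920 in SBT libraries. Single genes moved in opposite directions. Against pECDCs, iECDCs had lower Pdgfra (log2 fold change -0.57) and Col1a1 (-0.31) and higher Vim (0.36). Against iECDCs, SBT had higher Pdgfra (0.96) and lower Vim (-0.64). Against pECDCs, only Pdgfra was called in SBT (0.40, higher), and Col1a2 was called in no comparison. The part of these differences in the levels of the elastic fibre genes was not tested.

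Of 21 further genes of elastic fibre assembly, 16 were tested between iECDCs and pECDCs, where 1 was higher (Loxl4) and 4 were lower, beside 7.21% and 9.21% of all genes. Without iECDC replicate 3 these became 2 higher and 10 lower, beside 15.5% and 16.2%. Of the 4, Efemp1 and Mfap4 passed the filter only through pECDCs, and the others were Mfap2 and Atp7a (Mfap4 and Atp7a are named after their values were seen). Efemp1, which encodes fibulin-3, was at 11.8 to 13.5 FPKM in pECDCs and at most 0.149 in iECDCs, and it stayed low in SBT libraries (0.187 to 0.672). Mfap2, a second microfibril-associated glycoprotein next to Mfap5, was lower in iECDCs, with a log2 fold change of -0.49 ± 0.11 (edgeR adjusted p = 0.0138). Efemp2, which encodes the fibulin-4 that brings lysyl oxidase to elastin, was the most abundant of the list at 114 FPKM in pECDCs and 138 in iECDCs and was not called.

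Between SBT and iECDCs 15 genes of that list were tested, 4 were higher and 2 were lower, beside 16.0% and 14.0% of all genes. Without SBT replicate 2, 16 were tested, 7 were higher and 2 lower, beside 25.3% and 24.8%. Both settings count Fbln7 (higher) and Ltbp2 (lower), which passed the filter only through the group where they were high. Such genes had to differ once tested, so these counts are not a like measure to the shares of all genes. Mfap2 rose by 0.87 ± 0.18 and Emilin2, a relative of Emilin1, by 0.96 ± 0.20 on the log2 scale (edgeR adjusted p = 0.0100 for both). Ltbp1, a binding protein that anchors latent TGF-β to microfibrils, fell by 0.56 (SE 0.18, edgeR adjusted p = 0.0426). Its relative Ltbp2 was at 2.26, 2.18 and 6.18 FPKM in iECDCs and at 0.0070, 0.453 and 0.0068 FPKM in SBT libraries, was called lower and passed the filter only through iECDCs. The other calls were Atp7a and Fbln7, the latter of which passed only through SBT, and these 3 genes are named after their values were seen. The relatives Ltbp3 (0.45 ± 0.15) and Ltbp4 (0.76 ± 0.29) were not called, nor were Efemp2, Bmp1 and the lysyl oxidase relatives Loxl2, Loxl3 and Loxl4. Between SBT and pECDCs 17 were tested, 7 were higher and 6 lower, beside 17.9% and 17.0% of all genes, and without SBT replicate 2 these became 9 and 7, beside 31.7% and 32.3%. Of these calls, Fbln7 (higher), Efemp1, Mfap4 and Ltbp2 (lower) passed the filter only through the group where they were high. The other genes called higher were Ltbp3 (log2 fold change 0.57), Ltbp4 (0.49), Efemp2 (0.28), Loxl4 (0.46), Emilin2 (0.75) and Atp7a (0.46). Ltbp1 (-0.63), Loxl2 (-0.77) and Loxl3 (-0.36) were lower in SBT than in pECDCs, and Mfap2 and Bmp1 were not called there. Adamtsl2 and Adamts17 had no library above 3 counts.

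Of 9 proteases able to degrade elastin or its fibres, 4 were tested and 5 (Mmp7, Mmp9, Mmp12, Ctss and Elane) had at most 2 counts in every library. Mmp2, a secreted gelatinase, was at 21.3, 21.8 and 19.9 FPKM in iECDCs and 42.4, 24.3 and 39.8 FPKM in SBT libraries, a rise of 0.77 ± 0.20 on the log2 scale (edgeR adjusted p = 0.0225). Mmp2 was the 1 protease called between SBT and iECDCs, beside 16.0% of all genes higher and 14.0% lower. Without SBT replicate 2 there were 2, both higher, beside 25.3% and 24.8%. Ctsk, which encodes cathepsin K, was lower in iECDCs than in pECDCs, with a log2 fold change of -0.54 ± 0.10 (edgeR adjusted p = 0.0085). It was the 1 protease called there, beside 7.21% of all genes higher and 9.21% lower. In SBT against pECDCs, Mmp2 was higher (0.68 ± 0.20, edgeR adjusted p = 0.0351) and Ctsk lower (-0.71 ± 0.12, edgeR adjusted p = 0.0054). Over all genes 17.9% were higher and 17.0% lower there. Mmp14 (89.4 to 158 FPKM over all libraries) and Ctsl (63.7 to 94.4 FPKM) were called in no comparison with all libraries in it.

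**Figure D5:**
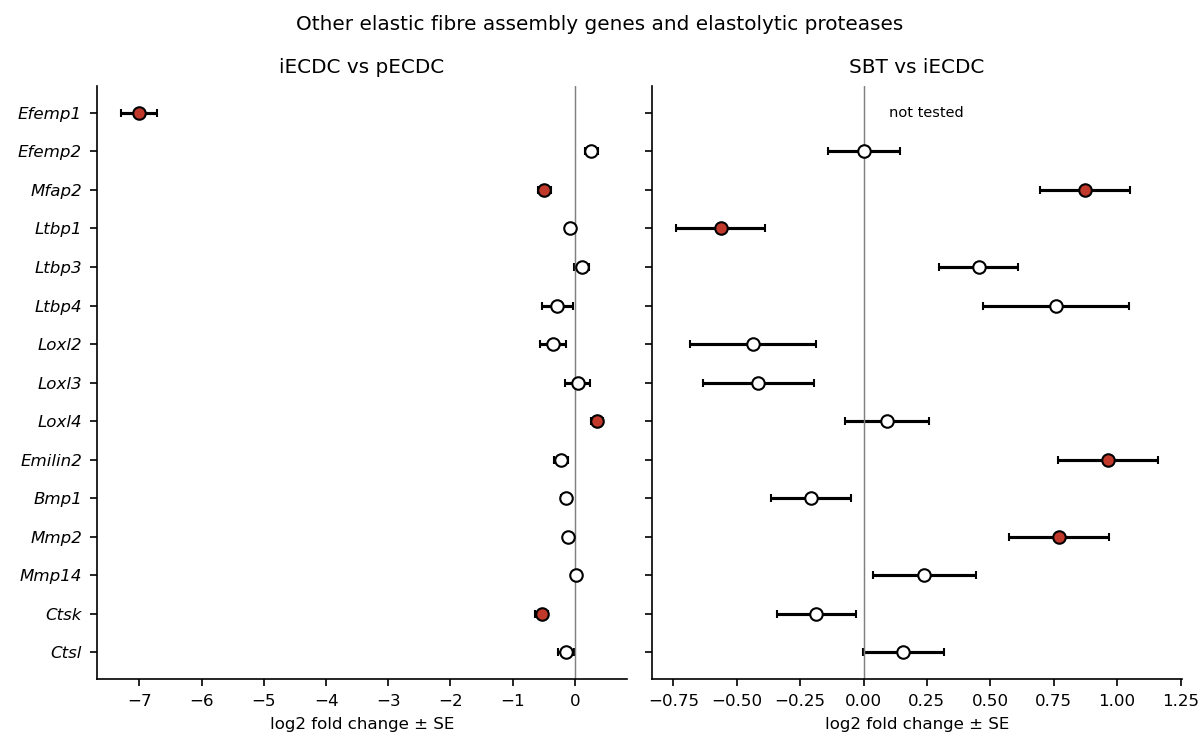
Log2 fold change and standard error (edgeR) of the tested assembly genes and proteases with a mean of at least 10 FPKM in a group, in iECDC over pECDC (left) and SBT over iECDC (right, on a different scale). Filled points have an adjusted p under 0.05. Efemp1 lies at -7.01 on the left and was not tested on the right, while Mfap2, Emilin2 and Mmp2 are higher on the right.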

How the data were processed

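Gene expression was measured by RNA sequencing in 9 libraries, 3 each of pECDC, iECDC and SBT, grouped by the titles in the labels. The authors deposited the raw count of reads for every gene, and FPKM, which is the count divided by gene length and a constant of each library. The submitters' processing notes name TopHat2 2.0.9, Bowtie2 2.0.6 and the build mm9, whereas the coordinates in the table are those of GRCm38, where 53499 of 54532 genes had the same start and end as in GENCODE release M21. The counting program is not given in the sources used here. The deposited table also holds, for each of the authors' own comparisons, fold changes, test results and averaged counts of each group, and none of these was used.

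The edgeR 4.0.16 package, run in R 4.3.3, was applied to the counts (TMM, filterByExpr with a minimum count of 10 and a minimum total of 15, quasi-likelihood test, Benjamini-Hochberg adjustment over all genes tested), each fit holding the 6 libraries of its own comparison. The number of genes tested was 13752, 13559 and 14015 for iECDC against pECDC, SBT against iECDC and SBT against pECDC. Total counts ranged from 19462912 to 23951392 in pECDC, 16568306 to 20204216 in iECDC and 17063137 to 20849975 in SBT libraries. Ratios of FPKM were compared with an exact permutation test in scipy 1.17.1, and the floor was 3 counts. Intervals for Eln are exact binomial intervals of pooled counts, and cover counting error only. Alternatives were upper-quartile normalization, RLE size factors, DESeq2 1.42.0, other filters, all 9 libraries in the fit, a replicate block, leaving out each library, and limma 3.58.1 on log2(FPKM + 1) or log2(FPKM + 0.1). The tests were first tested on simulated data.

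The elastic fibre genes, the other lists and the markers were chosen with earlier results of these data known. All 10 elastic fibre genes and 4 genes of the TGF-β response list are named, and 1 result of that list is not reported here. Of the assembly and protease lists, tested genes with a mean of at least 10 FPKM in a group and those without a library above 3 counts are named, and the 5 genes most like Eln are those with the highest Pearson r of log2(FPKM + 1) over the 9 libraries.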

Additional observations from a re-analysis of the deposited data

How the results depend on the processing

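Of 443 alternative values of single elastic fibre genes, 387 kept their direction and their side of the threshold, 33 lost the call, 6 gained it in the same direction and 17 changed sign, of which 5 also gained the call. The 387 include the values of Eln in both SBT comparisons. Since Eln passed the filter only through SBT, its values do not bear on how stable the calls were. Leaving out each library in turn moved the number of genes called from 1036 to 4467 for iECDC against pECDC (2258 with all libraries of both groups), from 1707 to 7001 for SBT against iECDC (4061) and from 2453 to 9188 for SBT against pECDC (4881), with the highest value in each without iECDC replicate 3, SBT replicate 2 and SBT replicate 2. The number of elastic fibre genes lower in iECDCs than in pECDCs went from 2 to 6. That higher in SBT than in iECDCs went from 3 to 7 with Eln counted, which had to differ once tested. Without Eln its highest value was 6. The highest values stood beside 16.2% of all genes called lower without iECDC replicate 3 and 25.3% called higher without SBT replicate 2. Shares by direction are not given here for the lowest values, so these ranges are no result about the elastic fibre genes. With all 9 libraries in the fit, 671 genes were called between iECDCs and pECDCs and 0 elastic fibre genes were lower. With SBT replicate 2 and iECDC replicate 3 both left out, 8951 genes were called between SBT and iECDCs and 8 elastic fibre genes other than Eln were higher. The signs that changed belonged to genes not called with all libraries of both groups. Loxl1 in iECDC against pECDC was -0.0051 with upper-quartile normalization and -0.0017 without a filter, and -0.16 to 0.11 over the libraries left out, and Fbln2 was -0.0026 to 0.072. In SBT against iECDC, upper-quartile normalization gave 0.019 for Fbn1 and 0.014 for Lox. There, leaving out libraries gave -0.11 to 0.13 for Fbn1, -0.26 to 0.078 for Fbln5 and -0.33 to 0.41 for Lox, and without both libraries that stand apart these were 0.26, 0.26 and 0.48. Fbn2 in SBT against pECDC was -0.22 to 0.14. The cause was not tested.

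The labels' replicate numbers showed no sign of pairing, with correlations of same-numbered deviations from -0.265 to 0.0491. With 3 libraries per group, and iECDC replicate 3 and SBT replicate 2 standing apart, these correlations cannot settle whether same-numbered libraries shared a culture or batch. With a replicate block, Loxl1 in iECDC against pECDC was -0.0032, 1791, 3038 and 3886 genes were called in the 3 comparisons, and of the elastic fibre genes only Fbn1 in SBT against pECDC changed its call (edgeR adjusted p = 0.0521). Changes of scaling moved the median log2 fold change of all genes by at most 0.0303 in size. Eln could not be tested between iECDCs and pECDCs under the filter, and it was dropped by the filter of 10 counts in every library.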

Other observations

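Among 5381 genes with a mean of at least 10 FPKM in a group, the 5 whose log2(FPKM + 1) was most like that of Eln over the 9 libraries were Gyg (Pearson r = 0.9955), Lamb2 (0.9931), Cyb5r3 (0.9921), Mmp2 (0.9919) and Hspb6 (0.9889). The values are a description over 9 libraries of 3 groups, which share the gap between SBT and the rest. Gyg, which encodes glycogenin, was at 117, 34.2 and 106 FPKM in SBT libraries and at 21.4 to 26.3 elsewhere. Lamb2, a laminin chain of basement membranes, was at 32.5, 15.9 and 28.2 FPKM in SBT libraries and at 12.5 to 14.0 elsewhere.

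Cdkn2a, the cell cycle inhibitor locus that is often lost in immortalized mouse cells, was chosen after its values were seen because labels and methods name different cells for SBT. It had 550, 407 and 562 counts in pECDC libraries, 0, 1 and 0 in iECDC libraries and 0 in each SBT library, which allows up to 3 counts per library. Which cells the SBT libraries came from was not tested.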
